A study of Homo sapiens with 12 samples.

Results

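INSIG1, INSIG2, SREBF1, SREBF2, SCAP and STARD4 are 6 genes that set how much cholesterol a cell makes and how it is moved inside the cell, and they were measured in Daoy cells, an established human medulloblastoma (MB) line. They were chosen by name, with earlier results of the comparison of media in these arrays known, and make up 6 of the 25275 genes that passed the filter on dim probes. Astrocyte conditioned media (ACM) was the supernatant of astrocytes grown from the hippocampi of newborn Sprague Dawley rats in DMEM with fetal bovine serum. Daoy cells, for which the labels name no genetic change, grew in ACM or in full DMEM with serum as control for 1 passage (P1) or 3 passages (P3), each of 48 h, in 3 independent experiments. This gave 12 arrays of Cy3-labelled total RNA, 3 each for P1 ACM, P1 DMEM, P3 ACM and P3 DMEM. Because ACM is DMEM in which other cells have grown, what the astrocytes released and what they used up cannot be told apart in this design.

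SREBF1 and SREBF2 encode the sterol regulatory element binding proteins SREBP-1 and SREBP-2, transcription factors that are made as membrane proteins of the endoplasmic reticulum. SCAP carries them to the Golgi, where the site-1 and site-2 proteases (MBTPS1 and MBTPS2) free the part that enters the nucleus, while INSIG1 and INSIG2 hold SCAP back when sterols are plentiful. INSIG1 and SREBF2 are themselves known targets of the pathway, as is STARD4, a carrier that moves cholesterol between membranes. An array of this kind measures the RNA and not the processing of the proteins, which is where sterols act first.

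Upstream sequences are shown for the members whose levels differed most between arrays and for SREBF2, so that motifs recognised by SREBPs and by a factor that works with them can be seen beside the values. Each run holds the 250 bases before the start of the gene, read 5′ to 3′ from the RefSeq table of GRCh38.p14, at chr7:155297628-155297877 on the plus strand for INSIG1, chr17:17836987-17837236 on the minus strand for SREBF1, chr22:41832855-41833104 on the plus strand for SREBF2 and chr5:111512536-111512785 on the minus strand for STARD4. Capitals mark matches to a 7-letter stretch of the classic sterol regulatory element (CACNCCA), an E-box (CACGTG) or a CCAAT box (CCAAT), each searched on both strands, and no match overlapped another.
INSIG1: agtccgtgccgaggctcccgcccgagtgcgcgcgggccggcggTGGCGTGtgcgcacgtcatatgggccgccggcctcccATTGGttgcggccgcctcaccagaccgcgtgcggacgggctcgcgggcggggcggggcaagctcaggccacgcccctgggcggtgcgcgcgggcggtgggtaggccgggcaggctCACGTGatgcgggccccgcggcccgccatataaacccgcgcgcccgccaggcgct
SREBF1: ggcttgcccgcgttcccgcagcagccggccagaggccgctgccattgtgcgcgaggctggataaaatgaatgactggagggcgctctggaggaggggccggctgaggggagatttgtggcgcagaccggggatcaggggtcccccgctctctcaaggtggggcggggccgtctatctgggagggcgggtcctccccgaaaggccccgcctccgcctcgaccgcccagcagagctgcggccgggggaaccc
SREBF2: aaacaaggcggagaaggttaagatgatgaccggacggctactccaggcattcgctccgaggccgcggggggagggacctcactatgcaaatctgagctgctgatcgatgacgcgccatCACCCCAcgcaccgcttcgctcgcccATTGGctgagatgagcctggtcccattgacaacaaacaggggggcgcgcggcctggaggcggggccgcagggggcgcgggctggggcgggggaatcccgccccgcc
STARD4: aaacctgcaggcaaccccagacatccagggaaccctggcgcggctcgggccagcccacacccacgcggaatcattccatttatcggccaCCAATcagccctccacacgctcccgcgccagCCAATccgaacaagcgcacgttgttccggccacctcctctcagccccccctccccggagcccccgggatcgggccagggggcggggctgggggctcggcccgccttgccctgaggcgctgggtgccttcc

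SREBF2 held the stretch of the sterol regulatory element 132 bases before its start and INSIG1 held it on the opposite strand 207 bases before its start, and 14.7% of the 35116 windows of this length in the table held it. The E-box lay 55 bases before the start of INSIG1 and 58 bases before that of SCAP, and 6.34% of all windows held one. CCAAT boxes were found in STARD4 (161 and 130 bases before the start) and, on the opposite strand, in INSIG1 (170 bases) and SREBF2 (106 bases), with 32.0% of all windows holding at least 1. SREBF1 and both windows of INSIG2 held none of the 3 motifs in the letters searched. A match describes letters in the sequence and does not show that a factor was bound.

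The 12 arrays fell into 3 sets of 4 by the recorded start of their scan, and each set was taken as 1 slide. By the labels of the scanner output, the first carried the whole P1 ACM group together with replicate 1 of P3 ACM. The second carried the remaining P3 ACM replicates (2 and 3) beside P1 DMEM replicates 1 and 2, and the third carried the whole P3 DMEM group together with replicate 3 of P1 DMEM. No slide therefore held both media at the same passage. Slide 2 had the lowest share of probes called well above background by the scanner software, 74.3% to 80.4%, where the other slides had 91.0% to 94.6% (slide 1) and 88.1% to 91.0% (slide 3). Of 10 markers of cerebellar and neural progenitors, 7 were well above background on all 12 arrays, while ATOH1 reached this on 2 arrays, NEUROD1 on 3 and ZIC1 on 11. Of 7 astrocyte markers, 4 were well above background on all arrays (GFAP and S100B on 7), and the summed level of that list ran from 1.81 to 2.46 on the log2 scale in P1 ACM and from 2.02 to 2.45 in P1 DMEM, and from 1.73 to 2.48 in P3 ACM and from 1.99 to 2.22 in P3 DMEM. GJA1 had the highest mean level of the astrocyte list (1.78), with SLC1A3 next at −0.37, and so weighed most in that sum. By the labels of the scanner output, single markers moved either way in P1 ACM against P1 DMEM. AQP4 (−1.37) and GJA1 (−0.11) were lower, and S100B (2.18), ALDH1L1 (1.65), SLC1A2 (0.67) and SLC1A3 (0.16) were higher. The mean levels of AQP4, S100B, ALDH1L1 and SLC1A2 were low, at −4.24, −6.19, −3.89 and −4.83. Of all genes, 30.7% were higher and 5.39% lower in P1 ACM without overlap of arrays. The summed progenitor markers ran from 6.50 to 6.68 in P3 ACM and from 6.84 to 7.47 in P3 DMEM, and overlapped at P1. VIM had the highest mean level of that list (6.74), with PAX6 next at −0.49, and so weighed most in the sum. In P3 ACM against P3 DMEM, VIM differed by −0.53, GLI1 by −0.47 and PAX6 by −0.32. ZIC1 and GLI2 differed by −0.17 each, OTX2 by −0.07, NES by −0.04 and ZIC2 by 0.67. At P3, 5.02% of all genes were lower in ACM without overlap of arrays. The probes were designed for human RNA.

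The sample labels of the data are in conflict. Besides the scanner output of each array, a table of log2 values was deposited, and none (0) of its 12 columns put the probes in the order of the scanner output with the same label, while each followed that of another sample (Spearman correlation of at least 0.99997 across probes, where the same label gave 0.953 to 0.992). For example, the columns labelled P1 ACM replicates 1, 2 and 3 matched the scanner output labelled P1 DMEM replicate 2, P1 DMEM replicate 1 and P3 ACM replicate 3. Which labels are right cannot be told from the files, so group names below follow the scanner output. Differences of the 6 genes and of the pathway lists between media are also given under the labels of the table. Values within a slide and values with slide as a block are given for the labels of the scanner output only.

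All 8 probes of the 6 genes were well above background on all 12 arrays. INSIG2 and SREBF1 had 2 probes each, and the probe with the higher mean signal leads. A level is log2 of the background-corrected intensity minus the 75th percentile of its array, with 0 at that percentile. Levels of different probes of the 6 genes are not compared.

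INSIG1, which keeps SCAP in the endoplasmic reticulum, had levels of 1.78, 0.46 and −0.26 in P1 DMEM replicates 1, 2 and 3 and of −0.59, −0.55 and −0.78 in P1 ACM (probe A_33_P3219090). All P1 ACM arrays lay below all P1 DMEM arrays, and P1 DMEM replicate 1 stood highest of the 12. At P3 the levels were 0.25, 0.17 and −0.54 in DMEM and −0.35, −0.73 and −0.92 in ACM, and here the groups overlapped. In order, the group means were 0.66 ± 1.04 in P1 DMEM, −0.04 ± 0.43 in P3 DMEM, −0.64 ± 0.12 in P1 ACM and −0.67 ± 0.29 in P3 ACM (SD, n = 3 each), and neighbours in this order differed by less than the wider SD of the pair, except P3 DMEM and P1 ACM. The difference ACM minus DMEM was −1.30 ± 0.43 at P1, a 2.46-fold lower level, and −0.63 ± 0.43 at P3 (standard error from the fit of all 12 arrays). It was −0.74 at P1 without P1 DMEM replicate 1, and under the labels of the table it was 0.57 ± 0.51 at P1 and 0.31 ± 0.51 at P3, with the sign turned.

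INSIG2, the second of the pair, varied less. Its leading probe (A_33_P3321342) had levels of 0.35, 0.37 and 0.64 in P1 DMEM and of 0.09, 0.12 and 0.27 in P1 ACM, and of 0.40, 0.79 and 0.70 in P3 DMEM and of 0.12, 0.27 and 0.57 in P3 ACM. The P1 groups did not overlap, and the P3 groups did. The differences were −0.30 ± 0.18 at P1 and −0.31 ± 0.18 at P3, and the other probe (A_24_P944458) gave −0.12 ± 0.15 and −0.03 ± 0.15. Under the labels of the table the leading probe differed by 0.04 ± 0.18 at P1 and by 0.40 ± 0.18 at P3, and the other by 0.05 ± 0.14 and 0.16 ± 0.14.

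SREBF1, the source of SREBP-1, which mainly drives fatty acid synthesis, had levels of 2.75, 2.03 and 2.53 in P1 DMEM and of 1.09, 1.09 and 2.07 in P1 ACM (probe A_23_P129786). P1 ACM replicate 3 reached the level of P1 DMEM replicate 2, and the other P1 ACM arrays lay below every DMEM array. At P3 the levels were 2.87, 2.82 and 2.60 in DMEM and 1.20, 1.42 and 1.97 in ACM, without overlap. ACM minus DMEM was −1.01 ± 0.31 at P1 and −1.23 ± 0.31 at P3, or 2.02-fold and 2.35-fold lower.

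The second SREBF1 probe (A_33_P3222139) did not show this. Its differences were 0.02 ± 0.18 at P1 and 0.00 ± 0.18 at P3, with levels of −1.71 to −1.10 over the 12 arrays, although the array design gives both probes the same transcript. The 2 probes therefore disagree, and the SREBF1 values above are those of 1 probe. Under the labels of the table the leading probe differed by 0.01 ± 0.47 at P1 and by 0.71 ± 0.47 at P3, and the second by −0.15 ± 0.17 and −0.01 ± 0.17.

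SREBF2, the source of SREBP-2, which mainly drives cholesterol synthesis, had levels of −0.15, −0.14 and −0.54 in P1 DMEM and of −0.69, −0.45 and −0.46 in P1 ACM (probe A_23_P419602). At P3 they were −0.45, −0.79 and −0.76 in DMEM and −0.62, −0.84 and −0.95 in ACM. The groups overlapped at both passages, and the differences were −0.26 ± 0.18 and −0.14 ± 0.18. Under the labels of the table they were 0.15 ± 0.21 and −0.21 ± 0.21. The latter was without overlap, as 15.5% of all genes were lower without overlap at P3 with those labels.

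SCAP, the escort of both SREBPs, had levels of 0.74, 0.65 and 0.75 in P1 DMEM, 1.11, 0.72 and 0.79 in P1 ACM, 0.95, 1.18 and 0.75 in P3 DMEM and 0.82, 0.71 and 1.23 in P3 ACM (probe A_23_P252825). The groups overlapped at both passages. ACM minus DMEM was 0.16 ± 0.19 at P1 and −0.04 ± 0.19 at P3, and 0.02 ± 0.19 and −0.07 ± 0.19 under the labels of the table.

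STARD4, the sterol carrier, had levels of 0.74, −0.22 and −0.80 in P1 DMEM and of −0.40, −0.92 and −0.50 in P1 ACM (probe A_23_P327519). The P1 DMEM arrays spread from the highest level of the 12 to below 2 of the P1 ACM arrays. At P3 the levels were 0.04, 0.41 and −0.35 in DMEM and −0.80, −1.06 and −0.74 in ACM, without overlap. The differences were −0.51 ± 0.35 at P1 and −0.90 ± 0.35 at P3, and that at P1 was −0.10 without P1 DMEM replicate 1 and −0.86 without P1 DMEM replicate 3. Under the labels of the table they were 0.47 ± 0.43 and 0.31 ± 0.43. In RNA from whole cultures, a lower level in every cell and fewer cells with a high level cannot be told apart.

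**Figure D1:**
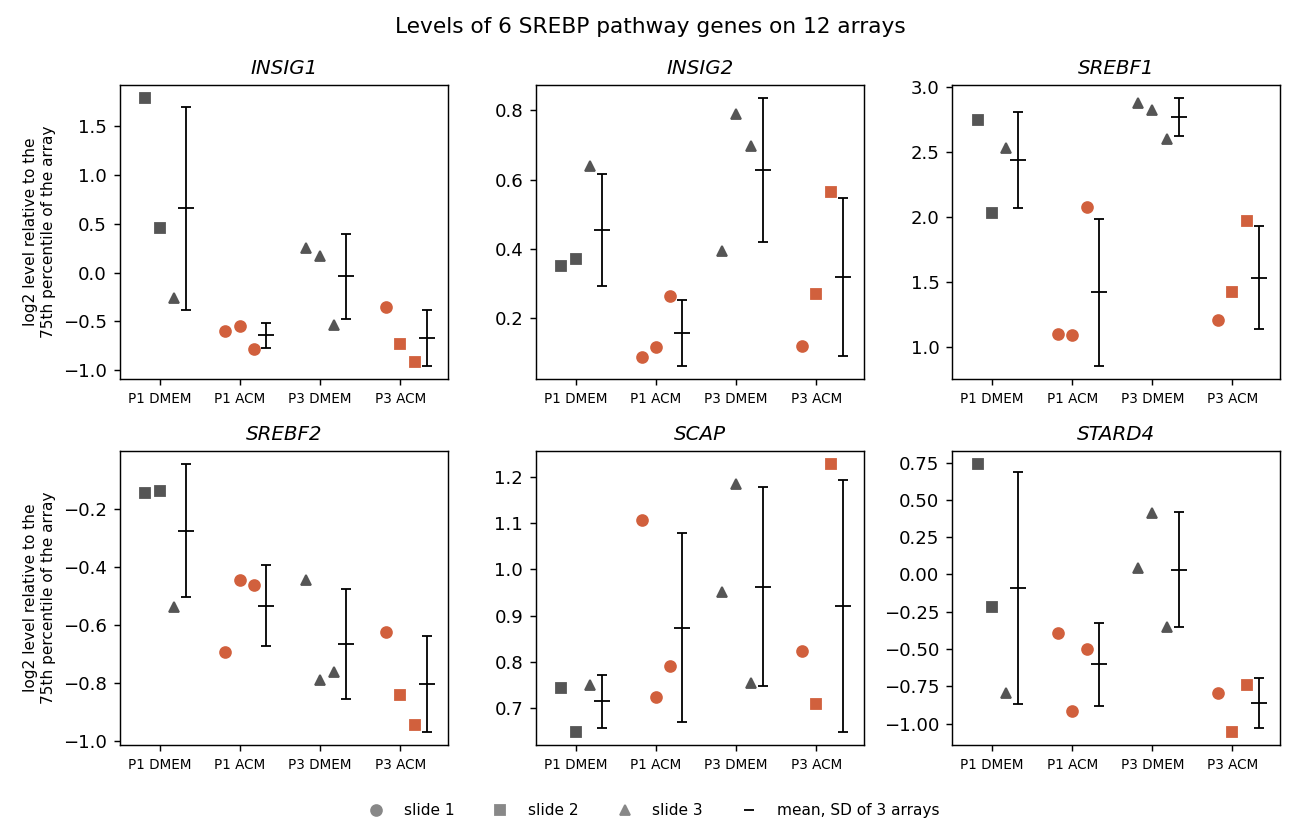
Level of the leading probe of each gene on the 12 arrays (log2 scale, 0 at the array's 75th percentile) by group, with the slide as the marker and the mean and SD of 3 arrays beside each group. INSIG1 and STARD4 were highest in P1 DMEM replicate 1, and the SREBF1 levels in P3 ACM lay below all those in P3 DMEM.

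Read together at P1, 5 of the 6 genes were lower in ACM, beside 36.1% of all genes, and 2 of 6 (INSIG1 and INSIG2) were lower without overlap, beside 5.39% of all genes. INSIG1 and SREBF1 passed the thresholds of the study, which are a change of more than 2-fold and an unadjusted p of 0.05 or less (here from limma). Of all genes 13.6% passed these in either direction at P1 and 0.0989% (25 genes) passed them as lower in ACM. This split between lower and higher moved with the scaling, from 25 lower and 3414 higher genes here to 230 and 905 with quantile normalization and to 376 and 155 with slide as a block. At P3, 6 of 6 were lower in ACM, beside 49.6% of all genes, and 2 of 6 (SREBF1 and STARD4) were lower without overlap, beside 5.02%. SREBF1 alone of the 6 passed the thresholds at P3, as did 1.73% of all genes in either direction and 0.819% as lower. Since the genes were chosen with these differences known, the counts and the thresholds, which use an unadjusted p, only describe them and are not read as a test.

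The median over all genes was itself 0.15 in ACM minus DMEM at P1 with this scaling and 0.00 with quantile normalization. With quantile normalization INSIG1 and SREBF1 were again the lowest of the 6 at P1, at −1.31 and −0.95, and SREBF1 no longer passed 2−fold. By the table's labels none (0) of the 6 genes passed the thresholds at either passage. Of 24759 genes, 313 passed as lower and 61 as higher at P1, and 1028 and 485 at P3. With these labels 6 of 6 were higher in ACM at P1, beside 12390 of 24759, and 4 of 6 at P3, beside 12820. At P1 SREBF1, SCAP and INSIG2 differed by only 0.01, 0.02 and 0.04. The direction of INSIG1, SREBF1 and STARD4 between media therefore rests on which labels are used.

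**Figure D2:**
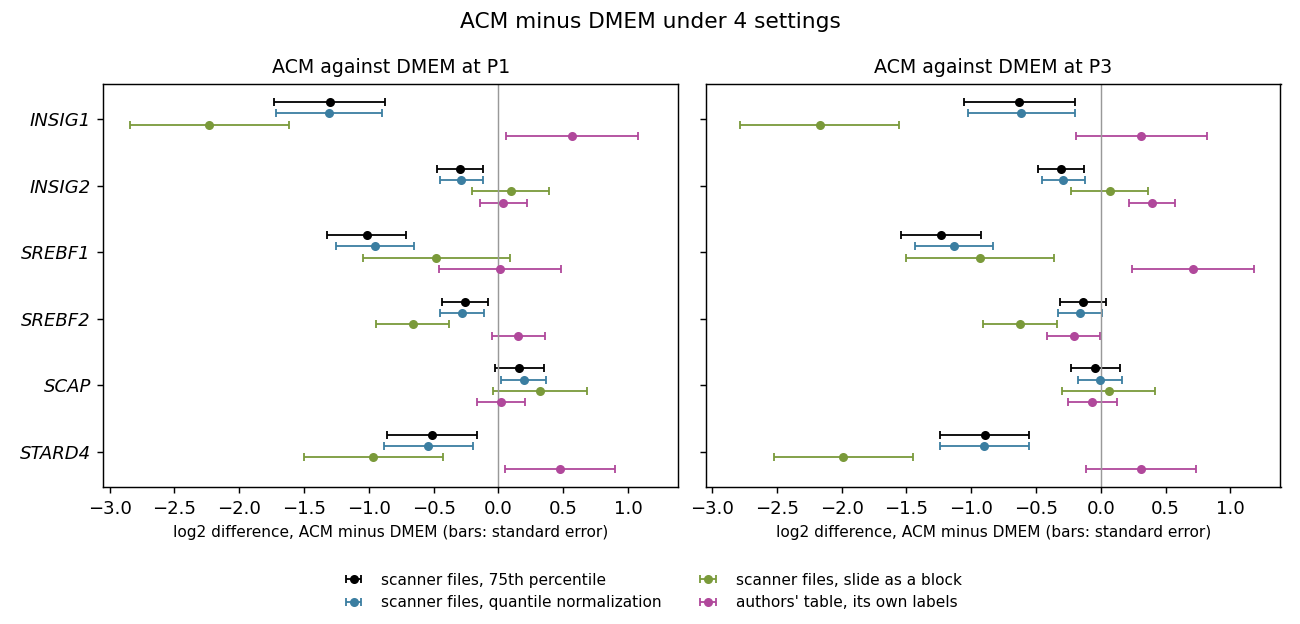
Difference ACM minus DMEM (log2) of the leading probe of each gene at P1 (left) and P3 (right), with standard errors, from the scanner output with 3 settings and from the authors' table with the labels it carries. INSIG1, SREBF1 and STARD4 were below 0 at both passages with each setting of the scanner output and above 0 with the labels of the table.

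By the labels of the scanner output, slide 2 was the only slide that held both media. They were of different passages, so medium and passage cannot be told apart in it. By the labels of the table, the same arrays are P1 ACM replicates 1, 2 and 3 and P3 ACM replicate 1, all in ACM. The values of this paragraph follow the labels of the scanner output. On slide 2, P3 ACM replicates 2 and 3 lay below P1 DMEM replicates 1 and 2 by 1.94 in the mean for INSIG1, 1.16 for STARD4, 0.75 for SREBF2 and 0.69 for SREBF1 on the log2 scale (differences of −1.94, −1.16, −0.75 and −0.69), which is 3.85-fold for INSIG1. In these 4 genes both ACM arrays were lower than both DMEM arrays, that is in 66.7% of the 6 genes, as against 20.3% of all genes. INSIG2 differed by 0.06 and SCAP by 0.27. With slide as a block in the fit, ACM minus DMEM was −2.23 at P1 and −2.17 at P3 for INSIG1, −0.97 and −1.99 for STARD4, −0.48 and −0.93 for SREBF1, and −0.66 and −0.62 for SREBF2. It was 0.09 and 0.07 for INSIG2, the sign of which turned, and 0.32 and 0.06 for SCAP. Because no slide held both media at the same passage, the blocked values rest on slide 2 and on a single array that ties another slide to it, which is P3 ACM replicate 1 on slide 1 for P1 and P1 DMEM replicate 3 on slide 3 for P3.

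The comparison of 3 passages with 1 passage in the same medium was not used to choose the genes, although it shares the P1 arrays with the comparison of media. In DMEM, none (0) of the 6 genes was called at an adjusted p of 0.05 or less with limma, nor at an unadjusted p under 0.05, nor with the methods' t-test after adjustment, and the share of all genes called was 0% with limma (8.13% unadjusted) and 0% with the methods' t-test. None (0) passed the thresholds of the study, beside 1.72% of all genes. P3 minus P1 in DMEM was −0.70 ± 0.43 for INSIG1 (limma adjusted p = 0.581), −0.39 ± 0.18 for SREBF2 (limma adjusted p = 0.571, the smallest of the 6), 0.33 ± 0.31 for SREBF1, 0.25 ± 0.19 for SCAP, 0.17 ± 0.18 for INSIG2 and 0.12 ± 0.35 for STARD4. SCAP was higher at P3 without overlap, as were 11.2% of all genes. The INSIG1 difference was −0.14 without P1 DMEM replicate 1 and turned to 0.22 ± 0.46 with slide as a block, where STARD4 differed by 0.83 ± 0.41.

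In ACM, none (0) of the 6 was called by the same tests, beside 0% of all genes with limma (13.7% unadjusted) and 0% with the methods' t-test, and none (0) passed the thresholds of the study, beside 7.51%. INSIG1 differed by −0.03 ± 0.43 (limma adjusted p = 0.990), and by 0.29 ± 0.46 with slide as a block. SREBF2 differed by −0.27 ± 0.18 (limma adjusted p = 0.568, the smallest of the 6), STARD4 by −0.26 ± 0.35, INSIG2 by 0.16 ± 0.18, SREBF1 by 0.11 ± 0.31 and SCAP by 0.05 ± 0.19. The table's own labels also gave no call (0 of 6) in either medium. The difference between media at P3 minus that at P1 was 0.67 ± 0.60 for INSIG1, −0.39 ± 0.49 for STARD4 and −0.22 ± 0.43 for SREBF1, and for the others it was −0.20 to 0.12.

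Enzymes of sterol synthesis are the best known targets of SREBP-2, and 19 of them were listed with the 6 genes in mind. In ACM, 17 of 19 were lower at P1 with a median of −0.45, where the median of all genes was 0.15, and 16 of 19 were lower at P3 with a median of −0.30. None (0) passed the thresholds of the study, and at P1 no gene of the list (0) was lower without overlap, beside 5.39% of all genes, while 2 of 19 were at P3, beside 5.02%. With slide as a block the medians were −0.67 at P1 and −1.30 at P3, and 4 of 19 passed the thresholds at P1 and 9 of 19 at P3, all lower in ACM. Of all 25275 genes with that block, 376 passed as lower and 155 as higher at P1. At P3 it was 295 as lower and 388 as higher. The blocked values at both passages rest on slide 2, where the DMEM arrays are P1 DMEM replicates 1 and 2. At P3 they also rest on P1 DMEM replicate 3, and blocked values without P1 DMEM replicate 1 are not given. HMGCS1, which makes HMG-CoA, was at 1.30, 0.19 and −0.44 in P1 DMEM and at −0.77, −0.82 and −0.22 in P1 ACM, a difference of −0.95 ± 0.49. SQLE, which oxidises squalene, differed by −0.74 ± 0.33 at P1 and −0.39 ± 0.33 at P3, and IDI1, which isomerises isopentenyl diphosphate, by −0.70 ± 0.40 and −0.46 ± 0.40. All 3 turned sign with the labels of the table, where HMGCS1 differed by 0.98 at P1, SQLE by 0.58 and 0.49, and IDI1 by 0.64 and 0.05.

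The sterol synthesis median at P1 depended on 1 control array. It was −0.15 without P1 DMEM replicate 1 and −0.75 without P1 DMEM replicate 3. P1 DMEM replicate 1 was the highest of the 12 arrays for 12 of the 19 genes (63.2%), for 5 of 12 fatty acid genes and for 2 of the 6 genes described here (INSIG1 and STARD4), and for 4.02% of all genes. Within slide 2, by the labels of the scanner output, 16 of 19 (84.2%) were lower in P3 ACM than in P1 DMEM without overlap, with a median of −0.93, as against 20.3% of all genes and a median of −0.02. By the labels of the table all arrays of slide 2 are in ACM. With the labels of the authors' values, 18 of 19 were higher in ACM at P1, with a median of 0.45, and the median at P3 was 0.05. Of all 24759 genes with those labels, 12390 were higher at P1.

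Of 12 fatty acid genes, 11 were lower in ACM at P1 (median −0.20) and 8 at P3 (median −0.11). FADS2, a desaturase, was the 1 gene of the list past the thresholds, at P3 with −1.41 ± 0.51 and without overlap, and its P1 difference was −1.08 ± 0.51. FADS2 was higher in ACM by the table's labels, at 0.85 at P1 and 0.86 at P3, and with slide as a block it differed by −0.05 at P1 and −1.69 at P3. With that block 4 of the 12 genes passed the thresholds at P3, all lower in ACM, and 0 at P1. Of all 25275 genes with that block, 295 passed as lower and 388 as higher at P3. These blocked values too rest on slide 2, with P1 DMEM replicate 1 among its arrays. SCD, the stearoyl-CoA desaturase, differed by −0.70 ± 0.46 at P1 and −0.86 ± 0.46 at P3. FASN, the fatty acid synthase, differed by −0.50 ± 0.38 and −0.18 ± 0.38, and ACLY, which supplies cytosolic acetyl-CoA, by −0.13 ± 0.23 and 0.08 ± 0.23. With the labels of the authors' values, 12 of 12 were higher in ACM at P1, beside 12390 of all 24759 genes. The list median was 0.29 at P1 and 0.20 at P3. There SCD differed by 0.87 at P1 and 0.64 at P3, FASN by 0.66 and −0.07, and ACLY by 0.01 and −0.50.

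The machinery that processes SREBPs had a median over 20 genes of −0.05 at P1 and 0.04 at P3 and none (0) past the thresholds. The site-1 protease MBTPS1 differed by −0.25 ± 0.23 at P1 and −0.31 ± 0.23 at P3. MBTPS2, the site-2 protease, differed by 0.00 ± 0.21 and 0.08 ± 0.21. The table's labels gave 0.13 and 0.34 for MBTPS1, 0.22 and 0.01 for MBTPS2, and a list median of −0.01 at P1 and −0.09 at P3, and with slide as a block the median was −0.24 and −0.19, MBTPS1 differed by 0.49 and 0.08 and MBTPS2 by −0.58 and −0.50.

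Among 12 genes of sterol transport inside the cell the median was −0.07 at P1 and 0.01 at P3. STARD5, a relative of STARD4, went the other way at P1, with levels of −0.50, −0.98 and −0.74 in ACM and of −2.19, −1.91 and −2.26 in DMEM. Its difference of 1.38 ± 0.24 passed the thresholds without overlap, as 30.7% of all genes were higher without overlap at P1, and it was 0.30 ± 0.24 at P3. By the table's labels STARD5 differed by −0.13 at P1 and −0.94 at P3, and with slide as a block by 0.50 and −0.18. STARD6 also passed at P1 with 1.87 ± 0.75, but it was well above background on only 7 of 12 arrays and differed by −0.42 at P1 with the labels of the table. STARD3, an endosomal sterol carrier, differed by −0.10 ± 0.15 at P1 and 0.02 ± 0.15 at P3, and NPC1, which exports cholesterol from lysosomes, by −0.20 ± 0.21 and 0.00 ± 0.21. The table's labels gave −0.12 and −0.10 for STARD3, 0.34 and −0.11 for NPC1, and a list median of −0.05 at P1 and −0.04 at P3. With slide as a block the list median was 0.09 at P1 and 0.22 at P3.

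LXR is the receptor of oxysterols that opposes SREBP-2 by raising sterol export, and its list of 7 genes had no member past the thresholds. ABCA1, the export pump, differed by 0.36 ± 0.60 at P1 and −0.11 ± 0.60 at P3, with levels spread from −3.45 to −0.96 over the arrays. MYLIP, a ubiquitin ligase that LXR induces, differed by −0.02 ± 0.27 and −0.27 ± 0.27. The list median was 0.00 at P1 and −0.11 at P3, and with slide as a block it was −0.25 and 0.48. With the table's labels ABCA1 differed by −0.90 and 0.13 and MYLIP by −0.23 and −0.01, and the list median was −0.02 at P1 and 0.13 at P3.

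**Figure D3:**
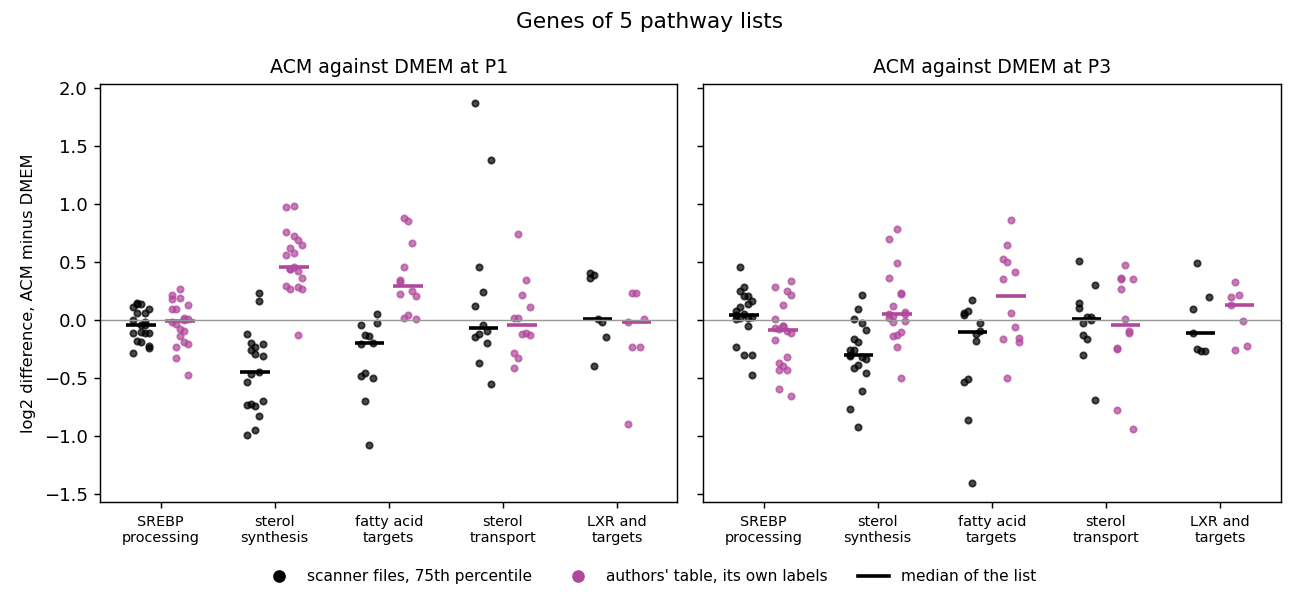
Difference ACM minus DMEM (log2) of each gene of 5 pathway lists at P1 (left) and P3 (right), from the scanner output (black) and from the authors' table with the labels it carries (purple), with the median of each list as a line. The sterol synthesis list had a median of −0.45 at P1 in the scanner output and of 0.45 in the table, and the medians of the SREBP processing and LXR lists lay near 0 in both at P1, with single genes on either side.

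Over the 12 arrays, the level of INSIG1 ran most nearly parallel to IDI1 (Pearson r = 0.93), CYP51A1 (0.92), MVK (0.92), FDFT1 (0.92) and DYNC1LI1 (0.90) among 15519 named genes that were well above background on all arrays. The first 4 are enzymes of sterol synthesis, and DYNC1LI1 is a light intermediate chain of cytoplasmic dynein. Of the 50 genes most like INSIG1, 9 belonged to the list of 19 sterol synthesis genes, and 5 did when P1 DMEM replicate 1 was left out, where the correlations of these first 5 were 0.74 to 0.83. Over the 6 DMEM arrays alone they were 0.92 to 0.98, and over the 6 ACM arrays they ran from −0.69 for CYP51A1 to 0.89 for FDFT1.

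Of the other members STARD4 was most like INSIG1 (r = 0.83, place 27 of 15519), followed by SREBF2 (0.72), SREBF1 (0.53), INSIG2 (0.11) and SCAP (−0.22). SREBF1 was more like INSIG2 (r = 0.78) than INSIG1. These correlations describe 12 arrays that share slides and groups, and carry no test.

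**Figure D4:**
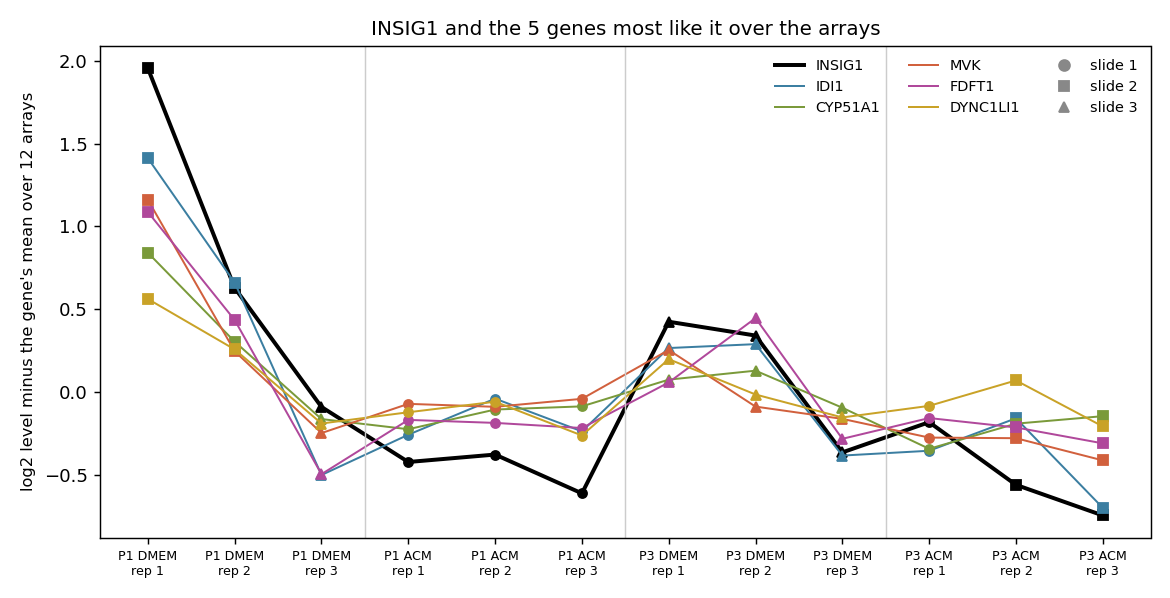
Level of INSIG1 and of the 5 genes most like it on the 12 arrays (log2, minus the mean of each gene over the arrays), ordered by group, with the slide as the marker. All 6 were highest in P1 DMEM replicate 1.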

How the data were processed

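RNA of Daoy cells was measured on 12 one-colour Agilent arrays, grouped by the labels for medium, passage and replicate. The authors deposited scanner intensity values, background-corrected by Agilent Feature Extraction 11.0.1.1 and not normalized between arrays. They also deposited log2 values of 30569 probes, which are those intensities after quantile normalization, under labels that conflict with the scanner output. The annotation of the array was used for accessions, named through RefSeq (GRCh38.p14). Control and outlier spots were left out, spots of a probe were averaged, and each array's 75th percentile was subtracted from log2 intensity. The filter kept 31078 of 34127 probes, those well above background throughout at least 1 group. All 12 arrays entered 1 fit of 4 group means in limma 3.58.1 (R 4.3.3), with two-sided p values adjusted by Benjamini-Hochberg across kept probes and 8 residual degrees of freedom. The number of arrays limits the precision. The fit was tested on simulated data. Figures were drawn with matplotlib 3.10.9.

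The members and the gene lists were chosen with earlier results of these data known. Named genes were the 6 members, 14 pathway genes named whatever their values, list genes past the thresholds of the study, and the 5 genes most like INSIG1. One of the pathway genes is not reported here. Replicates of the same number deviated together at P1 (correlations of 0.43, 0.19 and 0.27) and between passages in ACM (0.12, 0.12 and 0.53), so there the numbers may pair the samples. The main fit did not use such a pairing, and a block for replicate was an alternative. This pairing comes from the data, since the labels tie no number to a day or batch. Alternatives tried were normalization by quantiles or by normexp (offset 50) first, the authors' table, other dim-probe filters, a mean over each gene's probes, blocks for slide or replicate, the methods' t-test, and single arrays removed in turn. Passage differences of the members with single arrays removed were added after seeing the data.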

Additional observations from a re-analysis of the deposited data

How the results depend on the processing

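INSIG1 kept its direction at P1 and at P3 in 23 of 24 alternatives. Several of these could not change it. The methods' t-test, the replicate block and the removal of an array of the other passage all leave the difference of the group means as it is. With the authors' table and its labels it turned to 0.57 at P1 and 0.31 at P3, and SREBF1 to 0.011 and 0.71. With slide as a fixed block INSIG1 was −2.23 at P1 and −2.17 at P3. Leaving out each array in turn gave −1.76 to −0.74 at P1, the latter without P1 DMEM replicate 1, and −0.88 to −0.48 at P3. The count of genes past the thresholds at P1, 2 of 6, was 1 with quantile normalization, with normexp, with slide as a fixed or a random block and with the mean of all probes of a gene, and 0 with the table and with the methods' t-test, and 0 to 2 with 1 array left out (0 without P1 DMEM replicate 1). At P3, where it was 1, it was 0 with the table and with the mean of all probes, 2 with slide as a fixed or a random block, and 1 to 2 with 1 array left out (2 without P3 DMEM replicate 3). The cause of these changes was not tested, other than that the mean of probes includes the SREBF1 probe that did not differ. With the replicate block the counts at P1 and P3 were 2 and 1, and it changed no other call. At P3 the deviations of samples of the same number correlated by 0.23, −0.19 and 0.06, and between passages in DMEM by 0.36, −0.03 and 0.48. No gene of the 6 was called between passages in any of 24 alternatives in either medium.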
